A study of Homo sapiens with 4 samples.

Results

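PPARGC1A encodes PGC-1α, a transcriptional coactivator that drives mitochondrial biogenesis. Its 2 relatives among the coactivators, PPARGC1B and PPRC1, were examined with it, together with the factors through which these coactivators act: the nuclear receptors ESRRA, PPARA, PPARD and PPARG, the respiratory factors NRF1 and GABPA, and TFAM, which packages mitochondrial DNA and starts its transcription. The 10 genes were taken by name from the 17755 genes listed in the expression table. They were assembled around PPARGC1A because its level was higher with siLINC00622 in both cell lines, so that difference is given as a description, without a test.

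The human melanoma cell lines SK-MEL-28 and A375, both long established, were studied. Each was transfected with a negative control siRNA (siNC) or with siRNA against the long noncoding RNA LINC00622 (siLINC00622), for 6 h in serum-free medium and then 24 h in medium with serum. RNA was sequenced in 4 libraries, 1 per condition, so no difference between treatments within a line has a replicate check. The lines are single cultures per treatment, and a difference between the lines cannot be told apart from a difference between those cultures.

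PGC-1 coactivators bind no DNA themselves. They are recruited by nuclear receptors such as ERRα, the product of ESRRA, and the PPARs, and by NRF1 and the GABP complex, and they raise the transcription of genes for the respiratory chain, fatty acid oxidation and mitochondrial DNA maintenance. In melanocytes and melanoma, PPARGC1A is a known target of MITF, the master factor of the pigment cell lineage, and its level separates melanomas with high and low oxidative metabolism.

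PPARGC1A, ESRRA, PPARA and TFAM lay on the same side in both lines beyond counting error, and the RefSeq promoters of these genes are printed because they carry, or lack, the letters that factors of this pathway bind. Each runs from 250 bases before to 50 bases after the RefSeq start in GRCh38.p14 and is written in the direction of the gene. Capitals mark a match to TCACGTG (MITF and TFE factors) in PPARGC1A, GCATGCGC (NRF1) in ESRRA and CCGGAAG (GABPA) in PPARA, on either strand.
PPARGC1A (chr4:24472856-24473155, minus strand): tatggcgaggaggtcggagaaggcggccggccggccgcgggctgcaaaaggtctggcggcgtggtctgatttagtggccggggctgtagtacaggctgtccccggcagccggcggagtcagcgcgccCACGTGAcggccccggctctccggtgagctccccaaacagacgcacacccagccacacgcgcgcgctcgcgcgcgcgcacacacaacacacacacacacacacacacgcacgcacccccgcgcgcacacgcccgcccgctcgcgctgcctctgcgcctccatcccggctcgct
ESRRA (chr11:64305274-64305573, plus strand): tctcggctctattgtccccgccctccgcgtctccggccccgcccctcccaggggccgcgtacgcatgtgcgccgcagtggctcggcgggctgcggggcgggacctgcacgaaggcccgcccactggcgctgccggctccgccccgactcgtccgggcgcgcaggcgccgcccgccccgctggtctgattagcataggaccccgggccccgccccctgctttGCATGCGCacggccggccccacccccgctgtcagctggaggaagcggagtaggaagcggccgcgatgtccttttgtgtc
PPARA (chr22:46150276-46150575, plus strand): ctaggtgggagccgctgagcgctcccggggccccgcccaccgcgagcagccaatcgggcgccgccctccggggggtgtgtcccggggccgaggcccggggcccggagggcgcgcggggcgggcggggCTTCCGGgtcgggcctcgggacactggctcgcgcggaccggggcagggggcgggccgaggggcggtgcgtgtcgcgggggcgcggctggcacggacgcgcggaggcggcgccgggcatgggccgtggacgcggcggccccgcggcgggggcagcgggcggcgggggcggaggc
TFAM (chr10:58385160-58385459, plus strand): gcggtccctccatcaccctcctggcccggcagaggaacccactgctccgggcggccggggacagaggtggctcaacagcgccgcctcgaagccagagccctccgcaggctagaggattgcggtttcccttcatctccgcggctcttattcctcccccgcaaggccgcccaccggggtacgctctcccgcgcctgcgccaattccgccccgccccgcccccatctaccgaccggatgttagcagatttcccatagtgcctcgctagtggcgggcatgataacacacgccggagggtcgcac

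The promoter table held 9 of the 10 genes, and NRF1 was not matched. Its start for PPARGC1A lies 582828 bases from the nearest start of a coding PPARGC1A transcript in GENCODE 29, against 48 bases for ESRRA, 24 for TFAM and 5 for PPARA. Gene counts do not tell which start was used, so the PPARGC1A window describes 1 distant annotated start only. Both strands were searched for 6 motifs. GCATGCGC (NRF1) was found in ESRRA alone, 29 bases before the start, and in 3.05% of all 35116 promoters. CCGGAAG (GABPA) was found in PPARA and in GABPA itself, and in 10.3% of all promoters. AAGGTCA (the ERR element) was found in PPARG, and in 3.92% of all promoters. TCACGTG was found in PPARGC1A, 123 bases before the start, and in 3.71% of all promoters. TCATGTG, the other MITF and TFE motif, was found in PPARG and in 2.92% of all promoters. TGACGTCA (CREB) was found in 0 of the 9, and in 1.85% of all promoters. The TFAM window held 0 exact matches to these 6 strings, and other forms of the sites were not searched. The PPARA window was among the richest in G and C, at 85.7%, above 99.8% of all promoters, whereas those of PPARG (45.0%) and PPARGC1B (46.0%) lay below the median of 58.7%. The windows of PPARGC1B (chr5:149771690-149771989) and PPRC1 (chr10:102132790-102133089) lie inside genes that begin at 149730310 and 102119889. Each thus describes 1 inner annotated start only.

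The libraries held between 31269923 and 36384819 counts, and all 10 genes had at least 31 counts in every library. In SK-MEL-28 LINC00622 had 309 counts under siNC and 135 under siLINC00622. In A375 it had 135 and 86, which are log2 ratios of -1.21 and -0.84. The melanocyte lineage markers were all 7 listed, with a summed FPKM of 1914 and 2113 in SK-MEL-28, against 128 and 158 in A375. SOX10, a lineage factor, was high in every library, whereas PMEL, MLANA, TYR and DCT had FPKM values of at most 2.35 in A375 and of at least 104 in SK-MEL-28. TYRP1, a further pigment gene, was low in both, with 92 and 122 counts in SK-MEL-28, against 13 and 6 in A375. Of 10 markers of keratinocytes, fibroblasts, leukocytes and endothelium, 2 were listed. KRT14, a keratinocyte keratin, had 6 and 2 counts in SK-MEL-28, against 494 and 504 in A375. LUM, a matrix proteoglycan of fibroblasts, had 803 and 892 counts in SK-MEL-28, against 187 and 372 in A375, where it was higher with siLINC00622 like PPARGC1A, and its part was not tested.

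In SK-MEL-28 PPARGC1A had 609 counts under siNC and 2040 under siLINC00622. In A375 it had 31 and 92 counts. Within each line the siLINC00622 library was the higher one, and both SK-MEL-28 libraries lay far above both A375 libraries. After scaling for library size, PPARGC1A was 3.27-fold higher with siLINC00622 in SK-MEL-28, a log2 ratio of 1.71 (95% counting interval 1.58 to 1.85). In A375 it was 2.48-fold higher, a log2 ratio of 1.31 (0.76 to 1.997). In bulk RNA, more cells with the transcript and more transcript per cell cannot be told apart. The interval was wide in A375, where the gene had few counts, and it overlapped that of SK-MEL-28. On the scale of log2 of FPKM plus 1, the ratio was 1.27 in SK-MEL-28, but in A375, where FPKM was far under 1, it was 0.18 and no longer past 1.5-fold. The intervals cover counting error only, since reads carry no molecular identifiers.

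PPARGC1A was the only gene of the 10 that differed by more than 1.5-fold between treatments in either line. In SK-MEL-28, 1 of the 10 was higher past that fold, beside 4.56% of all genes, and 0 were lower, beside 6.49%. In A375, 1 was higher, beside 4.52% of all genes, and 0 were lower, beside 4.34%. In both lines at once, 0.693% of all genes were higher and 1.09% were lower past the fold, and PPARGC1A was the 1 gene of the set among them. Since PPARGC1A was selected on this difference, these counts describe the set and carry no test. The median log2 ratio of the 10 genes was 0.11 in SK-MEL-28, against 0.06 in A375, beside -0.004 and 0.004 for all genes.

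**Figure D1:**
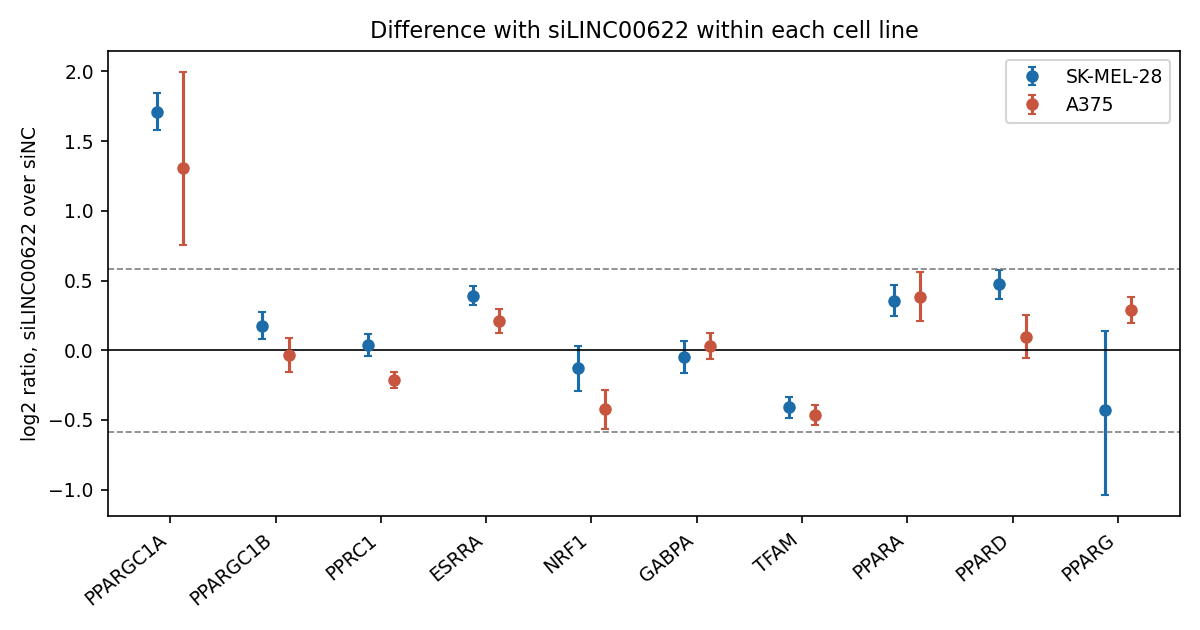
Log2 ratio of siLINC00622 over siNC for each of the 10 genes in SK-MEL-28 (blue) and A375 (red), with 1 library per condition. Bars are 95% counting intervals and dashed lines mark 1.5-fold. PPARGC1A alone lies beyond the dashed lines, at 1.71 and 1.31, and TFAM lies below 0 in both lines, at -0.41 and -0.46.

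The relatives of PPARGC1A differed much less between the treatments. PPARGC1B, which encodes PGC-1β and coactivates many of the same receptors, had 1628 and 1881 counts in SK-MEL-28, against 1028 and 1161 in A375 (siNC, then siLINC00622). Its log2 ratio was 0.18 (0.08 to 0.27) in SK-MEL-28, against -0.03 (-0.16 to 0.09) in A375. The SK-MEL-28 interval lay just above 0 and the A375 interval spanned it. PPRC1, which encodes the growth-regulated PGC-1-related coactivator, had 2696 and 2830 counts in SK-MEL-28, against 5273 and 5257 in A375. Its log2 ratio was 0.04 (-0.04 to 0.12) in SK-MEL-28, against -0.21 (-0.27 to -0.16) in A375, where the deeper siLINC00622 library held slightly fewer PPRC1 counts.

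PPARGC1A was a sizeable part of the coactivator family in SK-MEL-28 and a minute part in A375. Per transcript length, PPARGC1A made up 8.97% of the summed FPKM of the 3 coactivators in the SK-MEL-28 siNC library and 23.5% in the siLINC00622 library. In A375 its share was 0.301% and 0.881%. PPRC1 was the most abundant of the 3 in every library, 7.89 times the FPKM of PPARGC1A in SK-MEL-28 under siNC and 2.47 times under siLINC00622. In A375 it was 303 and 102 times as abundant. With siNC in SK-MEL-28, PPARGC1B was 2.25 times as abundant as PPARGC1A, whereas with siLINC00622 PPARGC1A was 1.29 times as abundant as PPARGC1B.

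**Figure D2:**
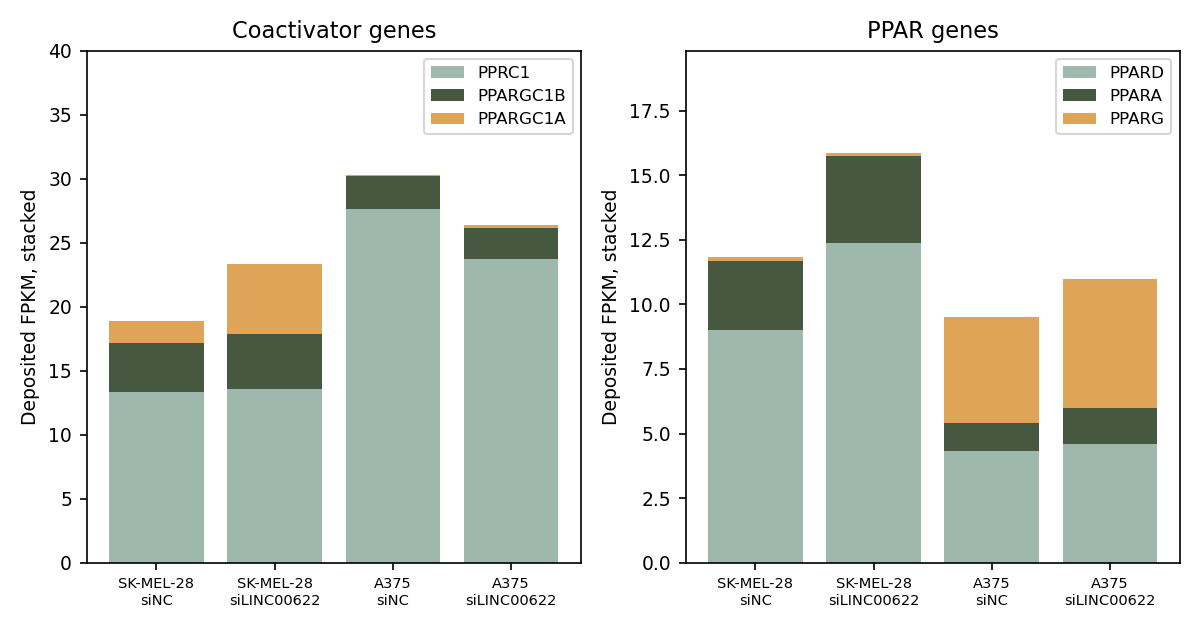
Deposited FPKM, stacked, of the 3 coactivator genes (left) and the 3 PPAR genes (right) in the 4 libraries. PPARGC1A takes 23.5% of the coactivator sum in SK-MEL-28 with siLINC00622 and under 1% in both A375 libraries, and PPARG takes a visible share, 43.1% and 45.3%, in A375 alone.

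ESRRA encodes ERRα, the receptor most closely tied to PGC-1α in driving respiratory genes. It had 3049 and 4086 counts in SK-MEL-28, against 2069 and 2767 in A375, and the siLINC00622 library was the higher one in each line after scaling. The log2 ratio was 0.39 (0.32 to 0.46) in SK-MEL-28, against 0.21 (0.13 to 0.29) in A375. In GENCODE 29 an exon of ESRRA overlaps TRMT112 on the opposite strand. The library kit is not stated to keep strand, so reads of that stretch could be counted for either gene. TRMT112 itself had 3685 and 3486 counts in SK-MEL-28, against 6119 and 6457 in A375, and its part in the ESRRA difference was not tested.

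PPARA, the receptor that drives fatty acid oxidation, was higher with siLINC00622 in both lines by nearly the same amount. It had 1166 and 1524 counts in SK-MEL-28, against 451 and 680 in A375. The log2 ratios were 0.35 (0.24 to 0.47) and 0.38 (0.21 to 0.56). PPARD, a widely expressed receptor with overlapping targets, had 1328 and 1883 counts in SK-MEL-28, against 602 and 745 in A375. Its log2 ratio was 0.47 (0.37 to 0.57) in SK-MEL-28, whereas in A375 it was 0.10 with an interval that spanned 0 (-0.06 to 0.26). PPARG, the adipogenic receptor, had 60 and 45 counts in SK-MEL-28, against 1536 and 2167 in A375. Its log2 ratio was -0.43 (-1.04 to 0.14) in SK-MEL-28, where few reads were counted, and 0.29 (0.19 to 0.38) in A375.

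TFAM coats mitochondrial DNA and starts its transcription, and it is a classical target of NRF1 and GABP. It had 3363 and 2585 counts in SK-MEL-28, against 3669 and 3076 in A375, so the siLINC00622 library was the lower one in each line. The log2 ratio was -0.41 (-0.49 to -0.34) in SK-MEL-28, against -0.46 (-0.53 to -0.39) in A375, the opposite side from PPARGC1A in both. NRF1, which switches on nuclear genes for respiratory subunits, had 656 and 613 counts in SK-MEL-28, against 929 and 800 in A375. Its log2 ratio was -0.13 (-0.29 to 0.03) in SK-MEL-28, against -0.42 (-0.56 to -0.29) in A375, so it lay beyond counting error in A375 alone. GABPA, the DNA-binding subunit of GABP (also named NRF2, a different protein from the stress factor NFE2L2), had 1231 and 1215 counts in SK-MEL-28, against 1616 and 1908 in A375. Its log2 ratios were -0.05 (-0.17 to 0.07) and 0.03 (-0.07 to 0.13), and both intervals spanned 0. GABPA overlaps ATP5PF on the opposite strand, and ATP5PF had 1586 and 1872 counts in SK-MEL-28, against 1661 and 2066 in A375. The GABPA pseudogene GABPAP was listed with between 45 and 75 counts. The part of ATP5PF and GABPAP in the GABPA counts was not tested.

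Counting intervals lay above 0 in both lines for 3 of the 10 genes, PPARGC1A, ESRRA and PPARA, beside 11.0% of all genes. They lay below 0 in both for 1, TFAM, beside 11.9% of all genes. PPARGC1A was selected on its rise, so its place among the 3 was set in advance. The treatment was also tested over both lines in 1 fit across all genes (edgeR quasi-likelihood, cell line as a term, 1 residual degree of freedom), in which the lines serve as the only repeats. Of the 9 genes other than PPARGC1A, 0 were called higher and 0 lower at an adjusted p of 0.05, beside 0.116% and 0.166% of all genes. Without adjustment, 4 of the 9 (ESRRA, TFAM, PPARA and PPARD) were under 0.05, beside 14.6% of all genes, and DESeq2 called 0. The fitted log2 ratio of TFAM was -0.43 (SE 0.09), with a Benjamini-Hochberg adjusted p of 0.114 by edgeR. Over the alternatives the adjusted p of TFAM ran from 0.0510 with DESeq2 to 0.999996 with edgeR without the line term. The fitted log2 ratio of PPARA was 0.38 (SE 0.10, edgeR adjusted p = 0.178), that of ESRRA 0.31 (SE 0.09, adjusted p = 0.212) and that of PPARD 0.30 (SE 0.12, adjusted p = 0.316). For NRF1 it was -0.27 (SE 0.12, adjusted p = 0.373), and for PPARGC1B, PPRC1, GABPA and PPARG the adjusted p was between 0.766 and 0.997. The number of all genes called, 46, was between 0 and 303 under the alternatives, and in each of them 0 of the 9 were called. With so few libraries, a p that misses the threshold does not show that a gene stayed the same.

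**Figure D3:**
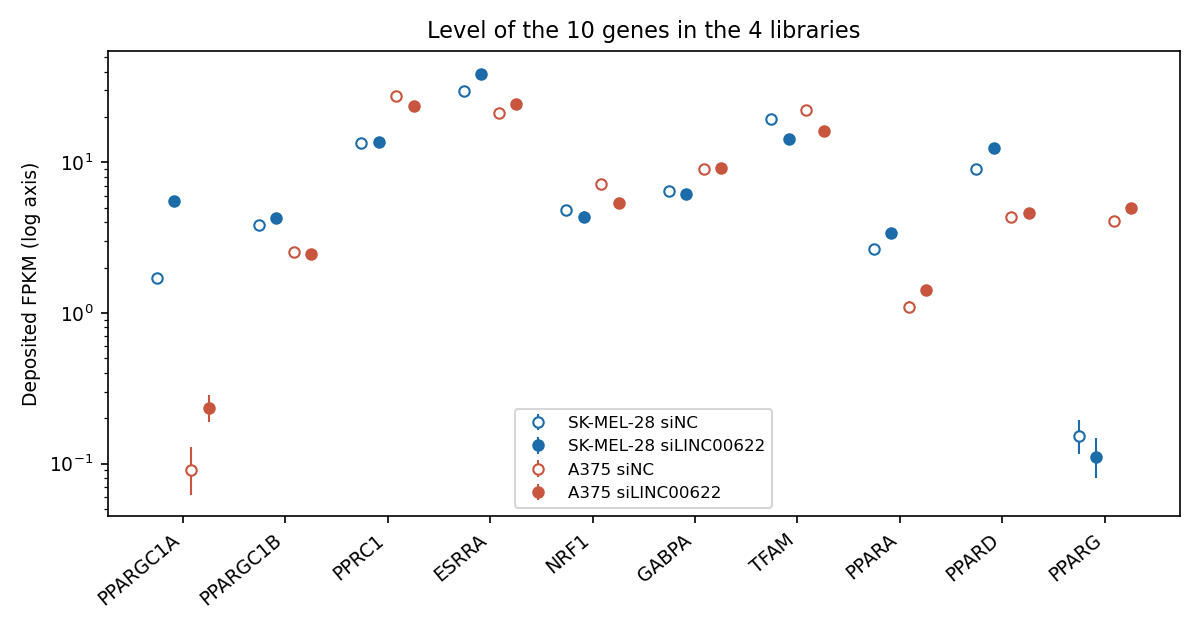
Deposited FPKM of the 10 genes in the 4 libraries on a log axis. Open points are siNC and filled points siLINC00622, in blue for SK-MEL-28 and red for A375, and bars, visible only for low genes, are 95% counting intervals. PPARGC1A spans from 0.0912 in A375 with siNC to 5.49 in SK-MEL-28 with siLINC00622, PPARG has the reverse order of lines, and the other 8 genes lie much closer together.

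Set by level per transcript length, PPARGC1A was among the lowest of the 10 genes except in SK-MEL-28 with siLINC00622. Its FPKM was 1.69 and 5.49 in SK-MEL-28, against 0.0912 and 0.233 in A375. It lay above 41.9% and 63.2% of all listed genes in SK-MEL-28, and above 3.63% and 6.60% in A375. Every listed gene had a mean FPKM over the libraries of at least 0.25, so genes low in all libraries are not counted in these shares. With siNC in SK-MEL-28 the order from the highest was ESRRA, TFAM, PPRC1, PPARD, GABPA, NRF1, PPARGC1B, PPARA, PPARGC1A and PPARG, and all neighbours differed beyond their counting intervals. With siLINC00622 PPARGC1A moved from rank 9 to rank 6, above NRF1, PPARGC1B and PPARA. There, TFAM and PPRC1, and NRF1 and PPARGC1B, could not be told apart.

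In A375 PPARGC1A ranked 10 of 10 under both treatments. With siNC the order was PPRC1, TFAM, ESRRA, GABPA, NRF1, PPARD, PPARG, PPARGC1B, PPARA and PPARGC1A. TFAM and ESRRA, and PPARD and PPARG, overlapped in their intervals. With siLINC00622 ESRRA, at an FPKM of 24.5, and PPRC1, at 23.7, overlapped in their intervals at the top, and NRF1, PPARG and PPARD overlapped in turn. ESRRA, TFAM and PPRC1 thus held the first 3 places in all 4 libraries, with FPKM values between 13.4 and 38.6.

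The lines differed in most of the 10 genes, a comparison that played no part in choosing them by name. In the same edgeR quasi-likelihood fit, 5 genes were higher in SK-MEL-28, beside 33.8% of all genes, and 3 were lower, beside 35.0%. PPARGC1A was 21.0-fold higher in SK-MEL-28 than in A375 with siNC and 26.5-fold higher with siLINC00622. Its fitted log2 ratio of the lines was 4.60 (SE 0.15, adjusted p = 1.35e-06 by edgeR), and both SK-MEL-28 libraries were higher. PPARG stood the other way, 23.9-fold higher in A375 with siNC and 40.4-fold with siLINC00622. Its fitted log2 ratio, SK-MEL-28 over A375, was -4.95 (SE 0.19, adjusted p = 2.43e-06 by edgeR). PPARGC1A in A375 and PPARG in SK-MEL-28 had FPKM values under 0.25, the lowest mean over the libraries of any listed gene. Each was thus listed only through its level in the other line, so its difference between the lines is not independent of the listing.

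The other differences between the lines were smaller. PPARA and PPARD were higher in SK-MEL-28 by fitted log2 ratios of 1.44 and 1.41 (SE 0.10 and 0.12; edgeR adjusted p = 3.34e-05 and 7.47e-05). PPARGC1B was higher there by 0.85 (SE 0.10, edgeR adjusted p = 0.000373) and ESRRA by 0.73 (SE 0.09, edgeR adjusted p = 0.000468). PPRC1 was lower in SK-MEL-28, at -0.76 (SE 0.10, edgeR adjusted p = 0.000468). GABPA was lower by less, at -0.35 (SE 0.10, edgeR adjusted p = 0.0165), and this call was lost with DESeq2 (adjusted p = 0.0869, from a range of 0.0165 to 0.0869 over the alternatives). NRF1, at -0.27 (SE 0.12, edgeR adjusted p = 0.0819), and TFAM, at -0.02 (SE 0.09, edgeR adjusted p = 0.868), were not called.

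**Figure D4:**
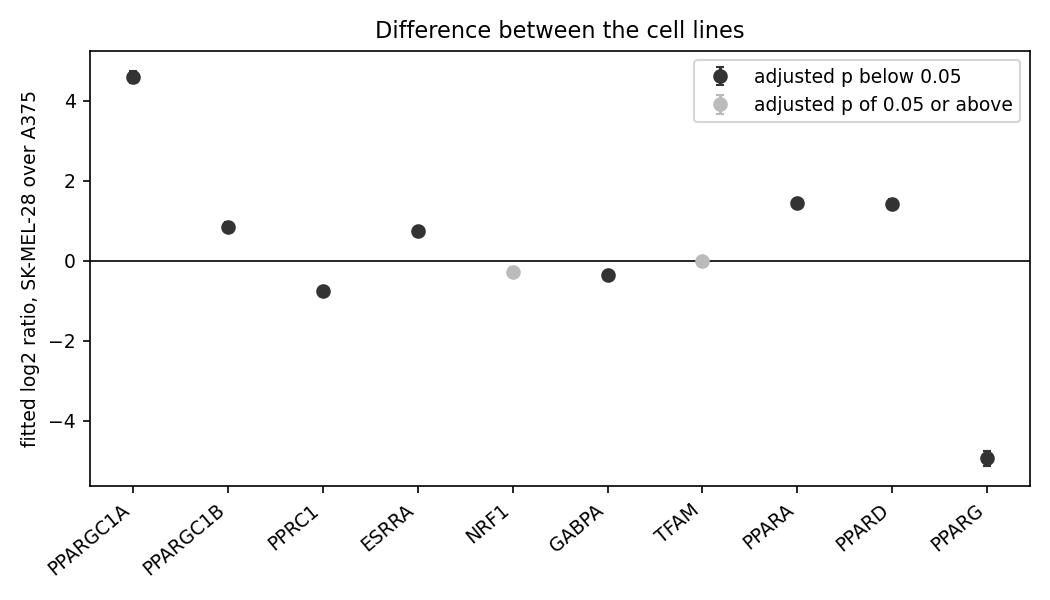
Fitted log2 ratio of SK-MEL-28 over A375 for the 10 genes from the edgeR fit on 4 libraries with treatment as a term. Bars are standard errors, dark points have an adjusted p below 0.05 and grey points do not. PPARGC1A, at 4.60, and PPARG, at -4.95, lie at the extremes and TFAM, at -0.02, near 0.

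The PPAR family was composed differently in the lines. In SK-MEL-28 PPARD made up 76.2% and 78.0% of the summed FPKM of the 3 PPAR genes, and PPARG 1.28% and 0.694%. In A375 PPARG made up 43.1% and 45.3%, and PPARD 45.4% and 41.8%. PPARA made up 22.5% and 21.3% in SK-MEL-28, against 11.5% and 12.9% in A375.

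Beside the 10 genes, 7 lists of genes around them were examined, covering regulators, mitochondrial DNA, respiration, fatty acids, antioxidants and mitochondrial upkeep. In the fit over both lines, 0 of their 146 listed genes were called for treatment by edgeR, and 25 had an unadjusted p under 0.05, beside the same 14.6% of all genes. DESeq2 called 5, among them MFN1, which was higher with siLINC00622, and TWNK, PRMT1 and HSPD1, which were lower. Of 36 listed regulators and partners, 1 was higher and 1 lower past 1.5-fold in SK-MEL-28, beside 4.56% and 6.49% of all genes. In A375, 1 was higher and 0 lower, beside 4.52% and 4.34%. TFEB, which activates lysosomal genes and is a known inducer of PPARGC1A, had 70 and 141 counts in SK-MEL-28 (log2 ratio 0.96, 0.56 to 1.41) and 41 and 52 in A375 (0.13, -0.49 to 0.76). PRMT1, an arginine methyltransferase that methylates PGC-1α, had log2 ratios of -0.66 in SK-MEL-28, against -0.38 in A375. The A375 gene past the fold was MEF2C, a muscle and neural crest factor named after its value was seen, at 0.78 in A375 and -0.13 in SK-MEL-28.

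MITF, the lineage factor upstream of PPARGC1A, had nearly the same level under both treatments. It had 18955 and 18299 counts in SK-MEL-28, against 1182 and 1288 in A375, and log2 ratios of -0.08 and -0.09. Between the lines it differed in the same direction as PPARGC1A, with a fitted log2 ratio of 4.09 for SK-MEL-28 over A375, and its part in that difference was not tested. RXRG, a partner of the PPARs, was likewise higher in SK-MEL-28 (5.32), and PRKAA2, a catalytic subunit of the energy sensor AMPK, was lower there (-5.64). The other RXR genes lay the other way from RXRG, RXRA at -0.90 and RXRB, which was not called, at -0.23. FLCN, whose product folliculin restrains PGC-1α through AMPK and the TFE factors, had log2 ratios of 0.42 and 0.21 with siLINC00622. MITF, RXRG, RXRA, RXRB, PRKAA2 and FLCN were picked from the list after their values were seen.

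Genes that copy and transcribe mitochondrial DNA lay on both sides. Of 22 listed, 8 had counting intervals below 0 in both lines and 2 above, beside the 11.9% and 11.0% of all genes given above. Past 1.5-fold, 2 were lower in SK-MEL-28, beside 6.49% of all genes, and 0 elsewhere. TWNK, the helicase of the mitochondrial replication fork, had 1837 and 1198 counts in SK-MEL-28, against 3565 and 2910 in A375, with log2 ratios of -0.65 and -0.50. TFB1M, which methylates mitochondrial ribosomal RNA, had log2 ratios of -0.70 and -0.18. The median of the list was 0.04 in SK-MEL-28, against -0.06 in A375. In SK-MEL-28 12 of the 22 ratios were above 0, and in A375 6 were.

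The respiratory chain itself differed little. Of 28 listed nuclear genes of the respiratory chain, ATP synthase and citrate cycle, 0 were past 1.5-fold in either line, 7 had counting intervals above 0 in both and 0 below (11.0% and 11.9% of all genes), and the medians were 0.06 and 0.07. Of the 28 ratios, 24 were above 0 in SK-MEL-28 and 19 in A375. Intervals narrow as counts rise, in this and the other lists. COX4I1, picked as an example after its values were seen, had at least 6314 counts per library. Its intervals lay above 0 in both lines at log2 ratios of 0.06. IDH3A, a subunit of isocitrate dehydrogenase, had log2 ratios of 0.35 and 0.17. Of these 28 genes, 20 were called higher in SK-MEL-28 than in A375 and 2 lower, beside 33.8% and 35.0% of all genes. Of the 13 protein genes of mitochondrial DNA, 12 were called higher in SK-MEL-28 and 0 lower, beside the same shares. By treatment, 0 of the 13 were past 1.5-fold in SK-MEL-28. In A375, 1 was lower, MT-ATP8 (-0.62, named after its value was seen), beside 4.34% of all genes. In SK-MEL-28 the log2 ratio of MT-ATP8 lay on the other side of 0, at 0.34 (0.29 to 0.38). MT-CO2, a subunit of cytochrome oxidase, had log2 ratios of 0.10 and 0.42, and MT-CYB, cytochrome b, 0.17 and 0.21. Mitochondrial transcripts made up 5.62% and 5.72% of the counts in SK-MEL-28, against 3.003% and 3.18% in A375.

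Of 22 listed genes of fatty acid oxidation and PPAR targets, 8 had counting intervals above 0 in both lines and 1 below, beside 11.0% and 11.9% of all genes. In SK-MEL-28 0 were past 1.5-fold, and in A375 3 were higher and 0 lower, beside 4.52% and 4.34% of all genes. These 3, named after their values were seen, were ANGPTL4, an inhibitor of lipoprotein lipase (155 and 351 counts, log2 ratio 0.96), PDK4, which slows glucose oxidation (124 and 233 counts, 0.69), and ACADS, a short-chain acyl-CoA dehydrogenase (114 and 209 counts, 0.66). ANGPTL4 and PDK4, which are textbook PPAR targets, had at most 11 counts in either SK-MEL-28 library. PLIN2, the lipid droplet coat protein, had log2 ratios of 0.50 in SK-MEL-28, against 0.23 in A375. HADH, a dehydrogenase of the oxidation cycle, was lower in both, at -0.55 and -0.44. Of this list, 14 of 21 ratios were above 0 in SK-MEL-28 and 18 of 22 in A375.

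**Figure D5:**
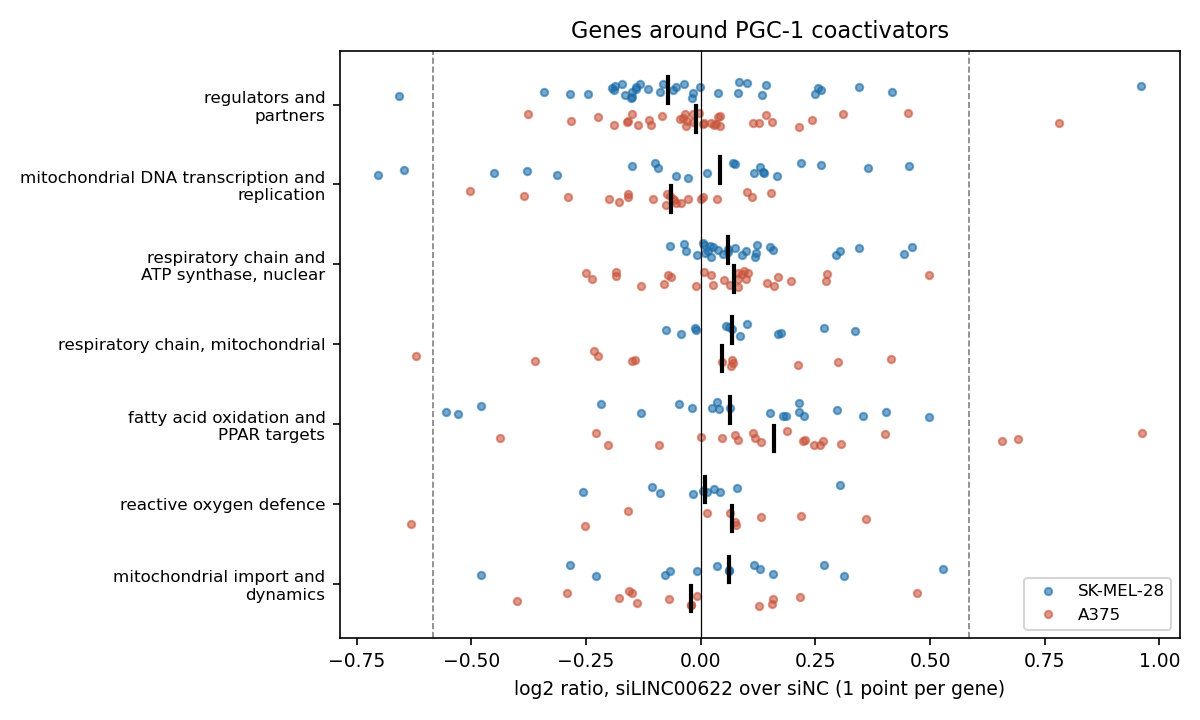
Log2 ratio of siLINC00622 over siNC for every gene of the 7 lists that reached 10 counts in the line, in SK-MEL-28 (blue) and A375 (red). Black bars are medians and dashed lines mark 1.5-fold. The medians lie between -0.07 and 0.16, and few genes reach the dashed lines in either line.

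Antioxidant enzymes are a further group that PGC-1α is known to induce. Of 10 listed, 0 had counting intervals above 0 in both lines and 1 below (11.0% and 11.9% of all genes). In A375, 1 was lower past 1.5-fold, beside 4.34% of all genes. That gene was GSR, glutathione reductase, with log2 ratios of -0.26 and -0.63, whereas CAT, catalase, had 0.08 and 0.36. Of 15 listed genes of mitochondrial import and dynamics, 0 were past 1.5-fold in either line. Counting intervals lay above 0 in both lines for 3 and below for 4, beside 11.0% and 11.9% of all genes. MFN1, a mitofusin that joins outer membranes, had log2 ratios of 0.53 and 0.47. HSPD1, the mitochondrial chaperonin, had -0.48 and -0.40.

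The genes whose pattern over the 4 libraries was most like that of PPARGC1A were sought across the table. Likeness was measured as the Euclidean distance between centred log2 CPM values over these libraries, among the 14295 genes that reached 50 counts in any of them. The 5 nearest were PHACTR1 (0.776), C5orf47 (0.787), ADRA2C (0.857), SEMA6D (0.897) and ENSG00000250644 (0.927). PHACTR1, a regulator of actin and protein phosphatase, had 1173 and 1901 counts in SK-MEL-28, against 47 and 109 in A375. SEMA6D, a transmembrane semaphorin, had 659 and 1471 counts in SK-MEL-28, against 41 and 54 in A375. C5orf47 and ADRA2C, an adrenergic receptor, had at most 5 counts in either A375 library, so their ratios there are poorly known. In SK-MEL-28 C5orf47 had 29 and 101 counts (log2 ratio 1.70) and ADRA2C 84 and 126 (0.54). All 5 genes were higher in SK-MEL-28 than in A375, with fitted log2 ratios between 3.84 and 5.52, so the difference between the lines enters each likeness. Among the other 9 genes of the set, the nearest was PPARA at rank 1410 and the farthest PPARG at rank 13768.

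A transfected siRNA can also lower transcripts whose 3′ UTR matches its seed, so the members were searched for the sites of both siRNAs listed against LINC00622. The target sequences are shown with the stretch that pairs with the guide seed in capitals, and the study does not state which of them was used for sequencing.
siLINC00622_1: ccctaaagaaaGTGAGAAa
siLINC00622_2: ggcaacctctaATTGACTt

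PPARA and PPARD each held 1 site for siLINC00622_1 in their longest annotated 3′ UTR, beside 14.6% of 12367 genes with at least 1. PPARA and GABPA each held 1 site for siLINC00622_2, beside 11.6% of genes. PPARGC1A held 0 sites for either in 3801 bases, and PPARGC1B, PPRC1, ESRRA, NRF1, TFAM and PPARG also held 0. Only exact matches in 1 annotated 3′ UTR per gene were searched. The part of seed matches in any difference was not tested.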

How the data were processed

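Bulk RNA-Seq gave 1 library per condition, grouped by label. The authors deposited counts, which are whole reads per gene and not normalized. They deposited CPM, scaled for library size, and FPKM, scaled for gene length as well. The TPM columns deposited by the authors were not used. The submitters' processing notes name HISAT2, HISAT, TopHat2, Bowtie2 and hg19. The counter and annotation are not given in the sources used here.

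Within a line, counts were scaled by TMM (edgeR 4.0.16, R 4.3.3), and log2 ratios used a prior count of 2 and 95% Clopper-Pearson intervals. Genes needed 10 counts in 1 library of the line. One edgeR quasi-likelihood fit with terms for line and treatment, on genes reaching 10 counts in 2 of 4 libraries, gave Benjamini-Hochberg adjusted p-values over 16310 genes. Its p-values measure the spread between these libraries only, with each gene's spread moderated by that of the other genes. Each SE was derived as the absolute fitted log2 ratio over the square root of the F statistic. DESeq2 1.42.0 was an alternative. Other steps used Python 3.11.15, and the fits were tested on simulated data.

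The text names the 10 genes, LINC00622 as a check, and the 5 genes nearest to PPARGC1A. From each list it names genes past 1.5-fold the same way in both lines. Otherwise it names the 2 whose log2 ratio, averaged over both lines, was largest in absolute value. Genes named by this rule reached 50 counts in each line. One such gene is not reported here. The members and lists were chosen with earlier results of these data known.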

Additional observations from a re-analysis of the deposited data

Results flagged for a closer look

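PPRC1 and PPARG had ratios of opposite sign in the lines with counting intervals that lay apart. For PPRC1 the log2 ratio of siLINC00622 over siNC was 0.039 in SK-MEL-28, against -0.21 in A375. PPARG had -0.43 in SK-MEL-28, from 60 and 45 counts, and 0.29 in A375. The difference between the lines was not tested, since each has 1 library per condition, and for both genes the SK-MEL-28 interval spans 0. Of 14721 genes, 2170 (14.7%) had ratios of opposite sign with intervals apart in the same way.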

How the results depend on the processing

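Taken from the authors' FPKM plus 1 on the log2 scale, the ratio of PPARGC1A was 1.27 in SK-MEL-28, against 0.18 in A375, so 0 of the 10 genes were higher past 1.5-fold in A375; FPKM values far below 1 are damped on that scale by construction. The ratio of PPARA in A375 was 0.21 on that scale. The number of genes called for treatment across both lines, 46 as reported, was 1 with DESeq2 size factors, 121 with no filter on low counts, 0 with at least 50 counts in 2 of 4 libraries, 303 with the DESeq2 Wald test and 0 with no replicate block, in which the line was left out as the pairing term. The cause of these shifts was not tested. None of the 9 members tested for treatment was called under any of these settings. Of the calls between the lines, GABPA was lost with the DESeq2 Wald test, at -0.33. Leaving out a library was not run, since it leaves no residual degrees of freedom. The labels give the libraries no shared replicate numbers beyond 1 per condition. The low counts of PPARGC1A in A375 and of PPARG in SK-MEL-28 limit how precisely their ratios are known.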
